A study of Mus musculus with 6 samples.

Results

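Early neural plate regulators of the SOX and ZIC families were examined in the nuclear RNA of mouse embryonic stem (ES) cells with the genotype *Rybp* fl/fl;*Yaf2* -/-. The group holds 8 genes, namely *Sox1*, *Sox1ot*, *Sox3*, *Sox21*, *Zic1*, *Zic2*, *Zic4* and *Zic5*, among 20633 entries of the deposited table. An entry is 1 RefSeq transcript of the authors' gene set, and each of the 8 genes has a single entry. The genes were chosen from how *Sox1* and *Zic2* stood in the authors' comparison of OHT with UNT. The fold changes and p-values of that comparison are not used here. What follows therefore describes levels over all libraries, with no contrast between treatments.

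Both groups were the same cell line, which lacks functional *Yaf2*, carries loxP sites around *Rybp* and expresses a tamoxifen-inducible Cre recombinase. RYBP and YAF2 are paralogous subunits of variant PRC1, the Polycomb complex that ubiquitylates histone H2A. The untreated group (UNT) has 3 libraries, and the group given 800 nM 4-hydroxytamoxifen for 96 hr (OHT) has 3 libraries. No group received OHT without floxed *Rybp*, so that in this design an effect of OHT or of Cre activity and that of RYBP loss cannot be told apart. Cells were kept on gelatin in serum with leukemia-inhibiting factor.

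SOX1, SOX2 and SOX3 are closely related HMG-box activators of the SOXB1 group. SOX1 is among the first factors restricted to the neural plate, whereas SOX2 and SOX3 also occur earlier. SOX21 and SOX14 belong to the SOXB2 group and act mainly as repressors. ZIC proteins are zinc finger factors of the neural plate and neural crest, and their genes mostly lie in divergent pairs, *Zic1* beside *Zic4* and *Zic2* beside *Zic5*. Many such regulators are Polycomb targets in embryonic stem cells, in which they are held at low transcription.

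The level of each gene is given as the authors' base mean, the read count divided by the library's size factor and averaged over the 6 libraries of both groups. Base means were divided by the RefSeq gene span in kb, so that genes could be set beside one another, and ranked among the 17831 genes with a base mean above 0. The median of these genes was 13.0 normalised reads per kb. A pooled mean carries no spread between replicates, and no SD can be given for it.

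The levels of the group were graded, from 49.2 to 0.0573 normalised reads per kb of span. On this scale *Zic2*, *Sox21* and *Zic5* lay above the median gene, *Sox1* lay close to it, *Sox3* and *Sox1ot* lay below it, and *Zic1* and *Zic4* were close to 0. In all, 4 of the 8 genes were above the median level per kb of span, whereas 0 of the 8 were above it per kb of exon or by base mean without length. The median percentile of the 8 genes was 44.7 per kb of span, 26.0 per kb of exon and 32.7 without length, against 50 for all ranked genes by construction. Where these genes stand against the median gene thus rests on the length used, while *Zic2*, *Sox21* and *Zic5* were the highest 3 and *Zic4* the lowest on each of these scales. The plot of levels on a log axis shows each gene, with the paralogs *Sox2* and *Sox14*.

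**Figure D1:**
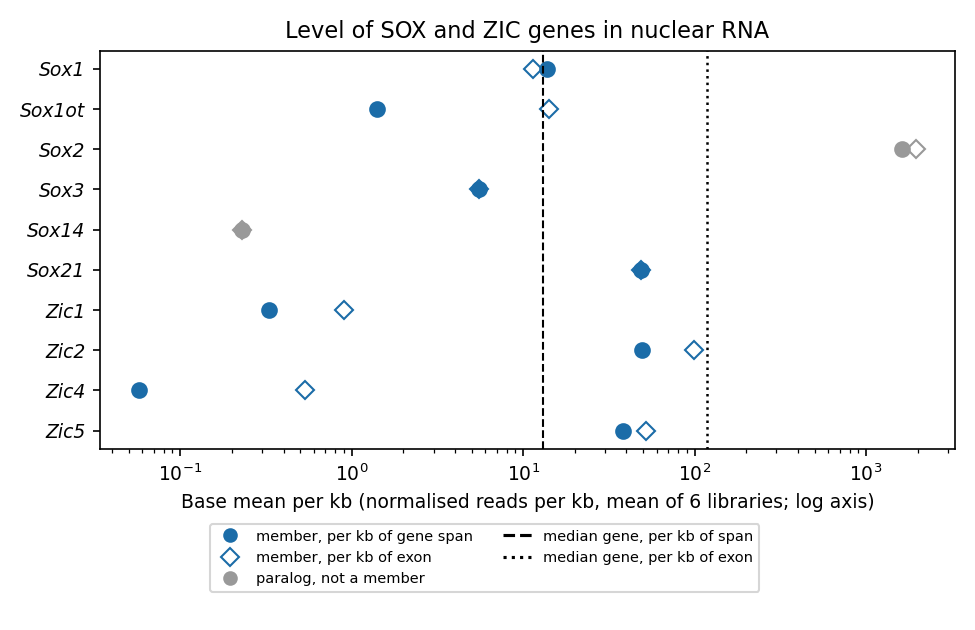
Base mean per kb (log axis) of the 8 genes (blue) and of the paralogs Sox2 and Sox14 (grey), with circles scaled by gene span and diamonds by exon length; the median gene is a dashed line per kb of span (13.0) and a dotted line per kb of exon (118.6). The circles of Zic2, Sox21 and Zic5 sit right of the dashed line at 38.4 to 49.2, all diamonds of the 8 genes sit left of the dotted line, and Zic1 and Zic4 sit far to the left of both.

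*Zic2*, a factor required for closure of the neural tube and patterning of the forebrain, was the highest of the group per kb. Its entry NM_009574 has 3 exons, and the RefSeq span of the gene runs from 122475384 to 122480328 of chromosome 14 (GRCm38, plus strand). The base mean of *Zic2* was 243.1, or 49.2 normalised reads per kb of span, at percentile 74.5. Per kb of span this was 3.78 times the level of the median gene, whereas per kb of exon *Zic2* was at percentile 47.3 and by base mean at 46.7.

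*Zic5* is its divergent partner, on the minus strand from 122459160 to 122465658. The base mean of *Zic5* was 249.4, or 38.4 per kb of span, at percentile 69.6. Over the span of the matching GENCODE transcript, which is longer (8883 bp), the percentile was 61.7. Before division by length *Zic5* was the highest of the group, at percentile 47.1. The 5′ ends of the gene spans of the pair are 9726 bp apart. Per kb of RefSeq span the level of *Zic2* was 1.28 times that of *Zic5*, and per kb of exon it was 1.90 times. Whether this exceeds the spread between libraries was not tested, as neither gene has values per library here.

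*Sox21*, a SOXB2 repressor that promotes neuronal differentiation, lies 4228628 bp away from *Zic5* by start site on the same chromosome. It is a single-exon gene on the minus strand from 118233233 to 118237030. Its base mean was 185.2, or 48.8 per kb of span, at percentile 74.4, while per kb of exon it was at percentile 38.7. The level of *Zic2* was 1.01 times that of *Sox21* per kb of span and 2.04 times per kb of exon.

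The sequences upstream of *Sox21*, *Zic5* and *Zic1* are shown because these promoters differ in CpG content while their genes differ in level in another order. Each stretch holds 200 bases, from 250 to 51 bases before the RefSeq start site, is taken from RefSeq (GRCm38.p6), and reads 5′ to 3′ on the minus strand, the strand of all 3 genes. Capitals mark CpG dinucleotides.
*Sox21*, chr14:118237081-118237280: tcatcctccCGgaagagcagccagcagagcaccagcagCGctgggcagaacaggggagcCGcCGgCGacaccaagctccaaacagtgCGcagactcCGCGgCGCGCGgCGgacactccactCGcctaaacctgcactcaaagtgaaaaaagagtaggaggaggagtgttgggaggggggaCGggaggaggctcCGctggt
*Zic5*, chr14:122465709-122465908: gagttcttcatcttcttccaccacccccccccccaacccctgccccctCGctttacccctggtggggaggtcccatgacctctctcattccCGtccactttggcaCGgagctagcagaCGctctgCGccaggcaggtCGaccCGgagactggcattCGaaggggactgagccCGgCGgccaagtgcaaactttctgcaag
*Zic1*, chr9:91365819-91366018: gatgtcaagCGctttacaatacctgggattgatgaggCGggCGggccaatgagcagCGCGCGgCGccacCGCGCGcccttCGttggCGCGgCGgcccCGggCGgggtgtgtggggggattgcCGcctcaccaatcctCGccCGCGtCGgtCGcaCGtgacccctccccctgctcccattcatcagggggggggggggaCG

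The stretch of *Zic1* holds 24 CpG dinucleotides, that of *Sox21* 15 and that of *Zic5* 10. Over the full promoter of 300 bases, the ratio of observed to expected CpG was 0.97 for *Zic1*, 0.69 for *Sox21* and 0.51 for *Zic5*. The median over all 32851 promoters of the reference table was 0.38. All 6 of the members' promoters that were matched (*Sox1*, *Sox1ot*, *Sox21*, *Zic1*, *Zic4* and *Zic5*) were above this median. *Sox1* had 37 CpG dinucleotides in 300 bases, at percentile 94.7, and *Zic4* had 8, at percentile 52.8. The window of *Zic4* lies inside its gene span and not at the 5′ end of that span. Whether it lies at the start site of the entry was not checked. The nearly silent *Zic1* thus has a denser CpG promoter than the transcribed *Zic5*. Promoters of *Sox3* and *Zic2* were not analysed here.

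Short promoter motifs were searched on both strands of the same windows. The TATA box (TATAAA) occurred in 0 of the 6 promoters and in 13.6% of all promoters. The GC box (GGGCGG) occurred in 3 of the 6, namely *Sox1*, *Zic1* and *Zic5*, and in 35.7% of all. The CCAAT box (CCAAT) occurred in *Sox1* and *Zic1*, and in 37.4% of all. These matches describe letters in a window and not binding.

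*Sox1* is a single exon on chromosome 8, from 12395519 to 12399555 (plus strand). Its base mean was 55.3, or 13.7 per kb of span, at percentile 50.8. Over the span of the matching GENCODE transcript, which is longer, the percentile was 46.4. With either span *Sox1* was within 5 percentile points of the median gene. Its base mean, before division by length, was at percentile 31.5, and its level per kb of exon was at 25.1.

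*Sox1* lies whole within the first of the 8 introns of *Sox1ot*, a long noncoding RNA transcribed in the same direction. *Sox1ot* (NR_027975) spans 12385771 to 12436732, and the intron spans 12386031 to 12424880. The base mean of *Sox1ot* was 71.8, or 1.41 per kb of span, at percentile 26.2. Reads of *Sox1* can enter the count of *Sox1ot*, and the table bears this out for nested genes in general. Among 113 genes that lie whole inside a longer gene of the same strand, with a base mean of at least 50, the longer gene had the lower base mean in 4 cases (3.5%). Among 100 such genes inside a longer gene of the opposite strand, it had the lower base mean in 49 cases (49.0%). Counts were thus largely taken over whole spans and by strand.

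The base mean of *Sox1* was 77.1% of that of *Sox1ot*, although *Sox1* covers 7.92% of its span. With the reads of *Sox1* taken off, the base mean of *Sox1ot* was 16.4 over 46925 bp, or 0.35 per kb. This is percentile 15.9 in place of 26.2. If *Sox1ot* were transcribed evenly at that level, it would add 1.41 to the base mean of *Sox1*, or 2.56% of it. Most of the reads on *Sox1ot* thus lie where *Sox1* is, and the 2 entries are not separate measurements. *Sox2*, inside *Sox2ot*, showed the same arrangement, with 85.4% of the base mean of *Sox2ot*.

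**Figure D2:**
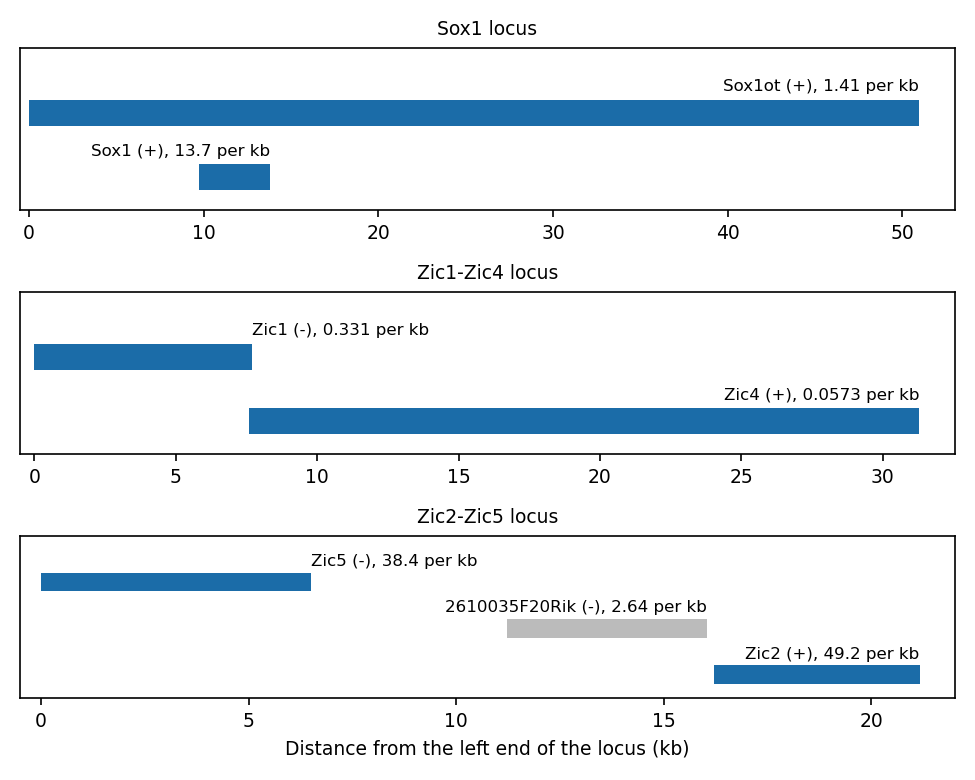
Gene spans at the Sox1, Zic1-Zic4 and Zic2-Zic5 loci, drawn to scale in kb from the left end of each locus, with strand and base mean per kb of span; blue spans are members and grey is a neighbouring noncoding gene. Sox1 lies within Sox1ot on the same strand, Zic1 and Zic4 overlap at their ends, and Zic5 and Zic2 point away from each other.

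*Sox3*, the SOXB1 gene of the X chromosome, lies on the minus strand from 60891366 to 60893430 as a single exon. Its base mean was 11.4, or 5.50 per kb, at percentile 38.6. Over all libraries this corresponds to 68.1 normalised reads. The level of *Sox1* was 2.49 times that of *Sox3* per kb of span, and the level of *Sox21* was 8.87 times that of *Sox3*. Of the 3 SOXB1 genes *Sox2* stood apart, at 1627 per kb of span and percentile 99.6. Its level was 118.7 times that of *Sox1* and 295.8 times that of *Sox3*. The SOXB2 gene *Sox14* was nearly silent, with a base mean of 0.47.

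The deposited base means also hold the reads of each library where they are low. A single read in 1 library adds a fixed amount to a base mean, and 6 such amounts were found, between 0.113 and 0.251. They give size factors, the relative depths of the libraries, from 0.66 to 1.48, a range of 2.23 times. All 2455 entries with a base mean above 0 and up to 4 had exactly 1 combination of whole reads. The libraries are named A to F from the deepest down, since their treatment cannot be read from these values and was not assigned. The base means of all entries summed to 23389513 normalised reads, the depth of a library with a size factor of 1.

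*Zic1*, which patterns the dorsal neural tube and cerebellum, occupies 91358058 to 91365768 of chromosome 9 (minus strand). Its base mean of 2.55 came from 14 reads, with 0 in library A, 2 in B, 6 in C, 0 in D, 4 in E and 2 in F. After division by size factor the values ran from 0 to 6.10, with a median of 2.25. *Zic1* was thus detected in 4 libraries and had no reads in A and D. A count of 0 still allows up to 3 reads, or more where both mates of a pair are counted. Per kb of span its level was 0.331, at percentile 15.6.

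*Zic4*, its divergent partner, lies on the plus strand from 91365631 to 91389351. Its base mean of 1.36 came from 9 reads, with 2 in library A, 2 in B, 1 in C, 4 in D, 0 in E and 0 in F. Normalised values ran from 0 to 4.30, with a median of 1.18. The libraries without *Zic1* reads were not those without *Zic4* reads. Per kb of span the level of *Zic4* was 0.0573, at percentile 5.76, which makes it the lowest of the group. Before division by length, the normalised reads of *Zic1* and *Zic4* overlapped across libraries. Whether these genes differ was not tested, as the reads are few and the treatment of each library is unknown. The gene spans of *Zic1* and *Zic4* overlap by 138 bp on opposite strands, with the 5′ ends of these spans 137 bp apart. The promoter analysed for *Zic4* belongs to a start site inside its gene span, 3204 bp from that of *Zic1*.

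**Figure D3:**
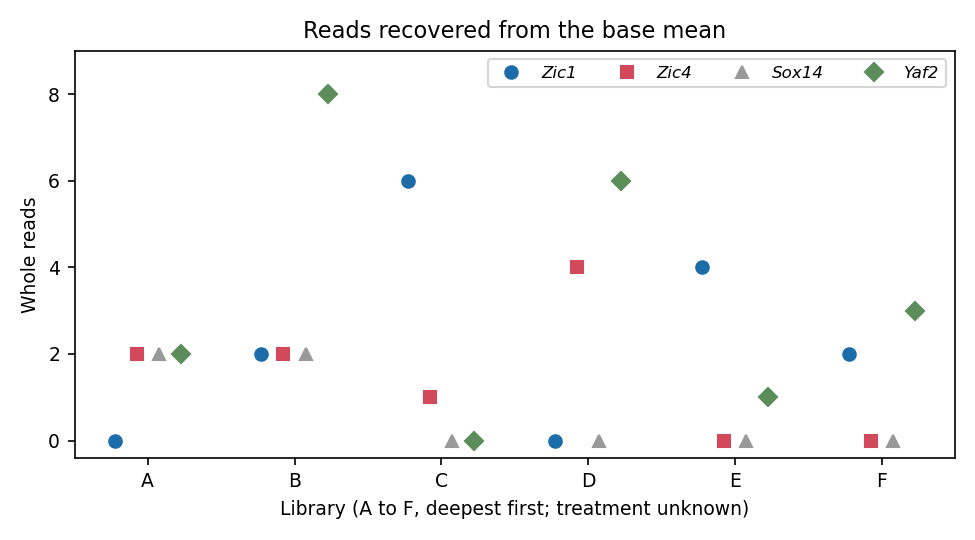
Whole reads of Zic1, Zic4, Sox14 and Yaf2 (vertical axis) in each of the 6 libraries (horizontal axis, A to F from the deepest down, treatment unknown), recovered from the base mean. Zic1 runs from 0 to 6 reads and Zic4 from 0 to 4, and each is at 0 in 2 libraries.

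The divergent pairs of ZIC genes thus stood far apart in level. *Zic2* was 148.6 times as high as *Zic1* per kb of span and *Zic5* was 670.1 times as high as *Zic4*. These factors compare single pooled values, and those against *Zic1* and *Zic4* rest on 14 and 9 reads. Per kb of exon they were 109.8 for *Zic2* over *Zic1* and 97.6 for *Zic5* over *Zic4*.

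Neighbouring entries within 100 kb were few, and genes outside the authors' gene set were not searched. At the *Zic2* locus the noncoding 2610035F20Rik lies 184 bp from *Zic2* on the opposite strand, and its level of 2.64 per kb of span was at percentile 31.7. *Pcca*, which encodes a subunit of propionyl-CoA carboxylase and begins 4036 bp beyond the end of *Zic2*, was at 7.82 per kb. *Gm5089* was at 0.69 and *Clybl*, a mitochondrial enzyme gene, at 13.0 per kb of span. *Zic2* and *Zic5* were thus higher per kb of span than each of these 4 neighbours. Per kb of exon, *Pcca* (1223) and *Clybl* (2438) were higher than *Zic2* and *Zic5*. Counts were largely taken over whole spans, so division by exon length raises genes with long introns. *Clybl*, for one, spans 231241 bp with 1231 bp of exon. *Gpr180*, 69000 bp from *Sox21*, was at 28.7 per kb. *Sox3* had no neighbouring entry in this window, and *Sox1*, *Sox1ot*, *Zic1* and *Zic4* had only each other.

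Other regulators of the early neural plate were set beside the group. Of 36 such genes, all with an entry, 11 were above the median level per kb of span and 25 at or below it. Their median percentile was 30.2, against 44.7 for the 8 genes (19.98 against 26.0 per kb of exon). Of the 36, 15 had a base mean under 10, as did 2 of the 8 genes. Of the 17831 ranked genes, 14449 had a base mean of at least 10. The highest were led by *Sox4*, a SOXC gene, at percentile 93.0, and *Sox11*, of the same group, was at 91.6. *Gbx2*, a hindbrain regulator also transcribed in embryonic stem cells, was at percentile 83.5, *Otx2*, of the forebrain, at 53.7, and *Pax6*, of the eye and forebrain, at 41.8. *Six3* (percentile 8.68), *Fezf1* (13.2) and *Lhx5* (14.9), all of the anterior neural plate, were at or below the percentile of *Zic1*. *Six3* had 8 reads in all and *Fezf1* also 8, all of them in library C. *Fezf2* was the lowest at percentile 3.37, with 2 reads in 1 library.

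Across the 19 SOX genes the median percentile was 38.9, and 8 were above the median level per kb of span, against 5 per kb of exon. *Sox2* was the highest and *Sox14* the lowest of them.

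The labelled cell type was checked against its markers. All 15 pluripotency genes with an entry, of 17 listed, were above the median level, with a median percentile of 97.8, from *Prdm14* at 58.5 to *Tdgf1* at 99.7. *Pou5f1* was at percentile 98.8 and *Nanog* at 97.9. Neuron markers had a median percentile of 39.1, with 3 of 8 above the median level per kb of span and 5 of 8 per kb of exon. Among these, *Stmn2* was at percentile 85.6 and *Tubb3* at 78.6, while *Dcx* had 2 reads in 1 library. None of the 10 mesoderm and endoderm markers was above the median level (median percentile 33.1). Of the 6 fibroblast markers 3 were above it (0 per kb of exon), led by *Col1a1* at percentile 58.4, and of the 5 trophoblast markers 1 was, *Tfap2c* at 85.4. A pooled mean cannot tell few cells with a high level from many cells with a low one, and the part of such cells in the levels of the SOX and ZIC genes was not tested.

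**Figure D4:**
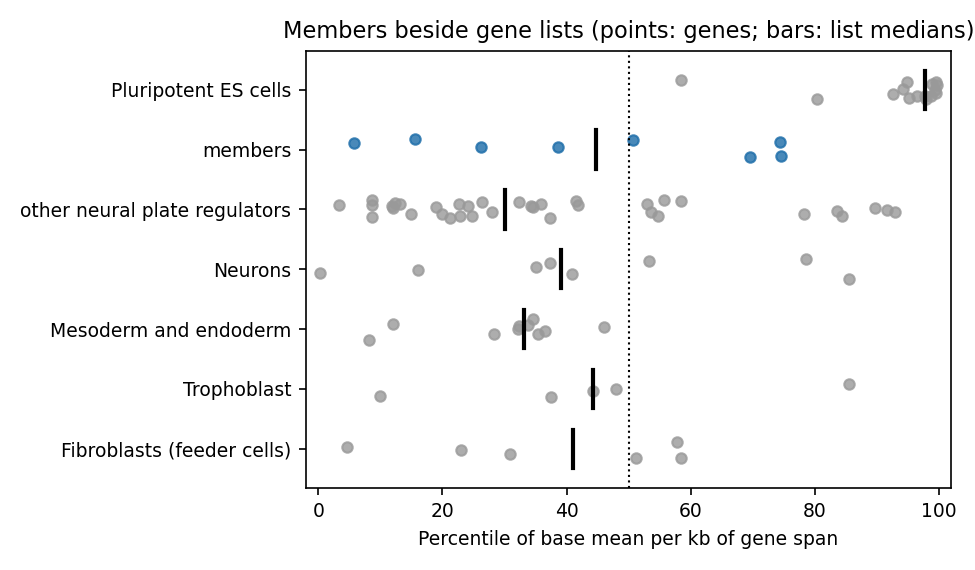
Percentile of base mean per kb of gene span (horizontal axis) for the 8 genes (blue) and for the genes of 6 lists (grey), with bars at list medians and a dotted line at percentile 50. The pluripotency list has its median at 97.8, the 8 genes at 44.7 and the other neural plate regulators at 30.2.

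For the targeted genes, *Yaf2* had a base mean of 3.24 from 20 reads, with 2 in library A, 8 in B, 0 in C, 6 in D, 1 in E and 3 in F. *Yaf2*, which both groups lack by genotype, thus had at most 8 reads in any library. *Rybp* had a base mean of 13983, which averages UNT and OHT and does not check their labels.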

How the data were processed

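Nuclear RNA was depleted of rRNA and sequenced as 40 bp read pairs with a directional kit. Per the study's methods, reads matching rRNA were discarded with bowtie2. STAR and, after it, bowtie2 placed the others on mm10. The authors counted them with a custom script over non-redundant RefSeq genes, then scaled and compared the libraries in DESeq2. Tool versions were not given in the sources used here. The deposited base mean is a signal: each library's count was divided by its size factor and the results were averaged. The 6 other value columns hold the authors' comparison (fold change, its error, statistic, p-values and a threshold flag) and were not used. The table holds no counts per library, so the planned count test of OHT against UNT was not run.

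Entries were named through the RefSeq table of GRCm38.p6, the assembly of mm10 (20446 of 20633 matched), with exons and strand from GENCODE vM21. Where a symbol had several entries, the highest base mean was kept. Percentiles were computed in Python 3.11.15 with numpy 2.4.6 and pandas 2.3.3. Whole reads were recovered by finding the 6 amounts that 1 read adds to a base mean, and this step was tested on simulated data. The simulated reads were drawn independently, so that test did not cover mates of a pair counted together. Of library values above 0 among entries with a base mean up to 4, 78.2% were even, as when both mates of a pair are counted, so that reads are not independent molecules. The counting floor of 3 reads takes reads as independent, so it is too low where both mates are counted. It covers counting error only.

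Genes named are the 8 members, the paralogs *Sox2* and *Sox14*, entries within 100 kb, the targeted genes, and the highest, lowest and cell type check genes of each list. *Sox2ot* and further genes of the lists were chosen after their values were seen. The members and lists were chosen with earlier results of these data known. Alternatives were exon length, no length, the GENCODE span, base mean filters and the entries kept per gene. The transcript span and *Sox1ot* without *Sox1* were added after seeing the data. Protein sequences were not used here, and 1 further planned gene is not reported here.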

Additional observations from a re-analysis of the deposited data

How the results depend on the processing

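No paired analysis was possible because base means pool UNT and OHT, and recovered reads cannot be tied to a treatment. For the same reason leaving out each replicate, DESeq2 size factors and a filter on counts were not run. The length used decides where the 8 genes stand. With exon length, 0 of the 8 were above the median gene and their median percentile was 26.0. With no length scaling these values were 0 and 32.7. The median gene was at 13.0 per kb of span and 118.6 per kb of exon. Single-exon *Sox21*, at 48.8 per kb on both lengths, moved from percentile 74.4 to 38.7. Counts were largely taken over whole spans, so exon length does not match what was counted in genes with introns. With a base mean of at least 10 in the background the median percentile was 31.9, since low genes leave the ranking. Under the remaining alternatives 3 or 4 genes were above the median gene and the median percentile lay between 41.9 and 48.7. Percentiles of single genes moved by more than 5 points in 14 of 32 cases. No spread between replicates is available for a pooled mean. The 5 points are a fixed tolerance for a change of setting and do not measure that spread.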
